A study of Homo sapiens with 6 samples.

Results

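The genes described here are 9 ADAMTS family genes, 8 secreted proteases (ADAMTS1, ADAMTS3, ADAMTS4, ADAMTS5, ADAMTS6, ADAMTS9, ADAMTS12 and ADAMTS15) and 1 ADAMTS-like protein (ADAMTSL4). They were taken by gene name from the 58735 genes of the count table. They were chosen by earlier sight of this same contrast, that is, on their measured values, so those values are given as a description. Where a gene lay against the threshold of the fit over all genes is stated, but supports nothing. The table held 19 ADAMTS protease genes in all, 8 of them among the 9. RNA-Seq was performed on MCF10A, an established nonmalignant human breast epithelial line. Cells received either a pool of nontargeting siRNA (siControl, 3 libraries) or siRNA directed at DAB2IP, a Ras GTPase-activating scaffold protein (siDAB2IP, 3 libraries), and RNA was taken 48 hours later. All cultures grew in the same medium with horse serum, insulin, epidermal growth factor, cholera toxin and hydrocortisone. The comparison thus rests on 1 cell line and 1 siRNA reagent against the target, and the labels do not say whether the 3 libraries of a group came from separate cultures, so the tests measure only the spread between these libraries.

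ADAMTS proteins are zinc metalloproteases that cells secrete into the extracellular matrix, where thrombospondin type 1 repeats help to hold them in place. They are made as inactive precursors, and many are activated by furin-like convertases. ADAMTS1, ADAMTS4, ADAMTS5, ADAMTS9 and ADAMTS15 cut the large proteoglycans aggrecan and versican, ADAMTS3 processes procollagens and acts with CCBE1 on the lymphatic growth factor VEGFC, and ADAMTS12 with ADAMTS7 can cut cartilage oligomeric matrix protein. ADAMTS6 acts on microfibrils and syndecan 4, whereas ADAMTSL4 has no protease domain and binds fibrillin.

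The coding bases of the zinc-binding site are shown because they separate the proteases from ADAMTSL4 and show a codon by which the proteases differ that the measured levels did not use. The 12-codon site was read from the longest coding transcript of GENCODE 29 on GRCh38. Capitals mark the codons of the 3 histidines that hold the zinc and of the catalytic glutamate. The search began with a glycine codon at position 8 of the site and was widened to any codon there once 4 proteases gave no match.

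ADAMTS1: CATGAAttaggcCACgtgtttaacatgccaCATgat

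ADAMTS4: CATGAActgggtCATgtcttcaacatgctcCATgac

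ADAMTS9: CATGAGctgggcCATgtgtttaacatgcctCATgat

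ADAMTS15: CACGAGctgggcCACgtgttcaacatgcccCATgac

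ADAMTS3: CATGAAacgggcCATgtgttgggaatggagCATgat

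ADAMTS5: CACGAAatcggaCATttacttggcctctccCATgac

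ADAMTS6: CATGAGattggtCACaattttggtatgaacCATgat

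ADAMTS12: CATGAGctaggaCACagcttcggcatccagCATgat

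The first 4 genes carry an asparagine codon at position 8 and the last 4 a glycine codon. The asparagine sites shared 27 to 31 of 36 bases with each other, and ADAMTS9 was as near to ADAMTS1 as to ADAMTS15, at 31 of 36. The glycine sites shared 21 to 26 of 36 bases, with ADAMTS6 and ADAMTS12 the closest pair. Between the groups the sites also shared 21 to 26 of 36 bases, and ADAMTS3 was nearer to ADAMTS9 (26) and ADAMTS1 (25) than to any glycine site (at most 24). No such site was found in the 1097 codons of ADAMTSL4. In each of the 8 proteases the site is joined from consecutive exons, for example exons 8 and 9 of ADAMTS9, which is encoded on the minus strand at chr3:64515654-64688000.

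Library totals ran from 16353783 to 21916062 counts, so that 3 counts, the limit a count of 0 allows, corresponded to 0.139 to 0.187 CPM (counts scaled to a common library size, with trimmed mean of M values, TMM, factors). DAB2IP fell from 91.6 ± 13.1 to 25.1 ± 2.57 CPM (SD, n = 3 each), a log2 fold change of -1.86 ± 0.13 (SE; edgeR quasi-likelihood test, adjusted p = 9.71e-05). Of 15430 genes that passed the filter on low counts, 1011 rose and 1181 fell at an adjusted p under 0.05, and the median log2 fold change was 0.01. All 10 markers of mammary epithelium reached 1 FPKM (fragments scaled by gene length and library depth), with a summed level of 2280 to 2780 FPKM in siControl and 1140 to 1510 in siDAB2IP, where KRT5, KRT14 and KRT17 were lower and the other 7 markers were not called, with log2 values from -0.57 to -0.40 for TP63, ITGA6 and EPCAM and from -0.07 to 0.09 for SFN, KRT18, KRT8 and CDH1. Of the markers of other cells, 3 of 10 for fibroblasts (14.8 to 26.7 FPKM summed against 16.1 to 22.2, with COL1A1 higher), 2 of 6 for endothelium (3.46 to 4.92 against 2.33 to 2.55, with KDR lower) and 1 of 6 for leukocytes (19.0 to 37.0 against 26.3 to 40.7, nearly all from CD14) reached 1 FPKM. Of these, the fibroblast markers DCN (log2 value -0.49) and FAP (0.72), the endothelial PECAM1 (-0.69) and CD14 (0.18) were not called. The fibroblast markers TCF21 and MEOX2 and the leukocyte marker CD3E were at 0 in every library. What part these shifts have in the levels below was not tested, and a smaller share of expressing cells and less RNA per cell cannot be told apart in such libraries.

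ADAMTS9 and ADAMTS6 were higher in siDAB2IP, and none of the 9 genes was called lower. Of the 9 genes, 7 passed the filter on low counts. Of these 7, 2 were past the threshold upward, where 6.55% of all genes tested were, and 0 downward, where 7.65% of all genes tested were. At an unadjusted p under 0.05 the same edgeR test had 3 of the 7 higher and 1 lower (ADAMTS15), beside 14.5% and 15.5% of all genes tested. DESeq2, which tested 6 of the 9, called 2 higher and 0 lower, beside 7.15% and 8.98% of all genes it tested. The CPM of the groups did not overlap for ADAMTS9, ADAMTS6 and ADAMTS15 among the 7, where 35.9% of all genes tested had groups that did not overlap. Because the genes were picked with this contrast in view, nothing is read from these counts. For the 7 genes the median of the log2 values was 0.33, with 4 of them above 0.

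**Figure D1:**
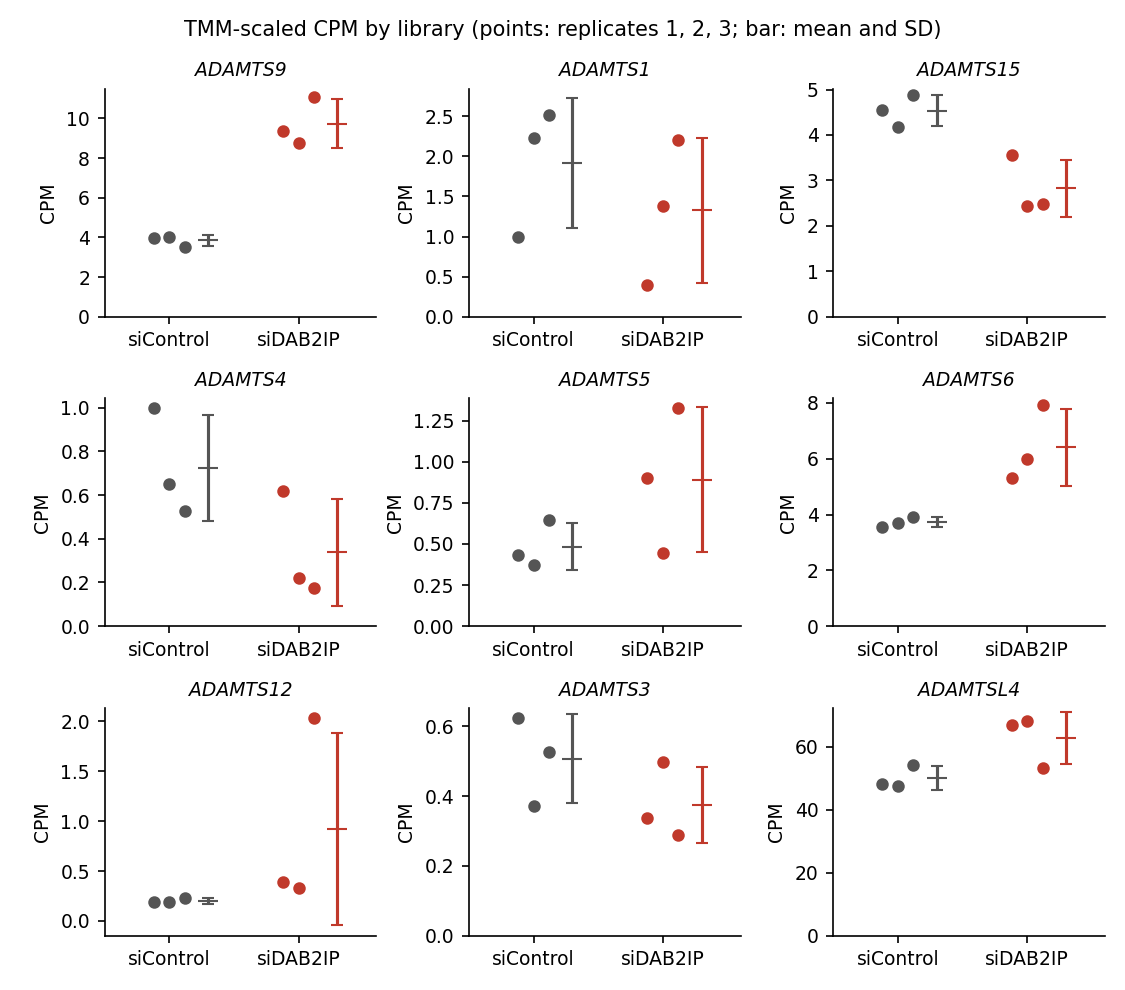
TMM-scaled CPM of each of the 9 genes, 1 panel per gene with its own linear axis. Points are the libraries of replicates 1, 2 and 3, and the bar beside them is the mean with its SD (n = 3). ADAMTS9 lies between 3.52 and 4.04 CPM in siControl and between 8.75 and 11.1 in siDAB2IP, and the ADAMTS12 mean in siDAB2IP is set by 1 library at 2.03 CPM, whose SD bar reaches below 0.

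Among the proteoglycan-cutting proteases, ADAMTS9 was higher in siDAB2IP and ADAMTS15 lay lower without passing the threshold. ADAMTS9 is a widely expressed versican protease and one of the largest of the family, here with 1935 codons in 40 exons. It held 3.99, 4.04 and 3.52 CPM in the 3 siControl libraries and 9.36, 8.75 and 11.1 CPM in the 3 siDAB2IP libraries. Every siDAB2IP library was thus above every siControl library, and the means were 3.85 ± 0.284 and 9.73 ± 1.2 CPM (SD, n = 3 each). The log2 fold change was 1.33 ± 0.18 (SE). On the raw reads, 211 counts in siControl stood against 515 in siDAB2IP, a depth-scaled ratio of 2.51 (exact 95% interval 2.14 to 2.97, counting error only). In the 14 other settings tried, which refit these same libraries, its log2 value ran from 0.48 to 1.41. Between libraries of the same replicate number, ADAMTS9 differed by 1.21, 1.09 and 1.62 on the log2 scale. The antisense gene ADAMTS9-AS1 shares 174 exonic bases with ADAMTS9 and had no count in any library.

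ADAMTS15, another protease of versican and aggrecan, lies on the plus strand at chr11:130448974-130476641. Its siControl libraries held 4.55, 4.18 and 4.87 CPM and its siDAB2IP libraries 3.55, 2.44 and 2.49 CPM. The groups did not overlap, with the first siDAB2IP library nearest to the controls. The means were 4.53 ± 0.348 and 2.83 ± 0.629 CPM, and the log2 fold change was -0.68 ± 0.23 (SE), not past the threshold. In 14 other settings its log2 value ran from -0.88 to -0.27 and was not past the threshold either. All 3 pairs of equal replicate number had a lower siDAB2IP value, by -0.35, -0.75 and -0.94 on the log2 scale. ADAMTS9 and ADAMTS15 share 31 of 36 bases at the catalytic site printed above, and lay on opposite sides of 0 in this comparison.

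ADAMTS1 and ADAMTS5 are neighbours on the minus strand of chromosome 21, at chr21:26835747-26845409 and chr21:26917912-26966513, and both were low. ADAMTS1, which cuts versican and also restrains vessel growth, held 0.997, 2.23 and 2.52 CPM in siControl against 0.395, 1.38 and 2.20 in siDAB2IP. The groups overlapped, and replicate 1 was the lowest library in both. The log2 fold change of ADAMTS1 was -0.54 ± 0.53 (SE). Between libraries of the same replicate number it differed by -1.13, -0.645 and -0.188 on the log2 scale. The ratio of ADAMTS1 means, 0.692, became 0.463 without siDAB2IP replicate 3 and 0.934 without siDAB2IP replicate 1.

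ADAMTS5, one of the 2 main aggrecanases of cartilage, held 7, 8 and 11 counts in siControl and 16, 8 and 23 in siDAB2IP. In CPM these were 0.436, 0.371 and 0.646 against 0.903, 0.443 and 1.33. Replicate 2 was low in both groups, which overlapped. The log2 fold change was 0.88 ± 0.49 (SE), and the counting interval of the ADAMTS5 ratio ran from 1.13 to 3.13.

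ADAMTS4, the other main aggrecanase, had 16, 14 and 9 counts in siControl and 11, 4 and 3 in siDAB2IP. These were 0.997, 0.650 and 0.528 CPM against 0.621, 0.222 and 0.174 CPM, with the first siDAB2IP library inside the control range. The ADAMTS4 log2 fold change was -1.07 ± 0.54 (SE), and the value of the lowest library equals the limit of 3 counts. Without siDAB2IP replicate 1, the ratio of means went from 0.468 to 0.273. The 2 aggrecanases thus had mean values on opposite sides of 0, each from at most 23 counts in a library and with overlapping groups. Between libraries of the same replicate number, ADAMTS4 differed by -0.598, -1.19 and -1.16 and ADAMTS5 by 0.889, 0.2 and 0.932 on the log2 scale.

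ADAMTS6, the microfibril and syndecan 4 protease, was the other gene past the threshold. It is encoded on the minus strand at chr5:65148736-65481920. Its libraries held 3.55, 3.71 and 3.93 CPM in siControl and 5.30, 5.98 and 7.94 CPM in siDAB2IP. The control libraries lay close together, every siDAB2IP library was above them, and replicate 3 was the highest. The means were 3.73 ± 0.192 and 6.41 ± 1.37 CPM, and the log2 fold change was 0.78 ± 0.21 (SE). ADAMTS6 was past the threshold in 7 of 14 other settings and its log2 value was positive in all 14 (0.28 to 0.90). It was not past the threshold without any 1 of the 3 siControl libraries (log2 values of 0.72, 0.76 and 0.80 without replicates 1, 2 and 3), without siDAB2IP replicate 2 (0.82) or 3 (0.59), and in both limma fits of FPKM (0.28 and 0.64).

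ADAMTS12 and ADAMTS3 had too few counts to enter the fit. ADAMTS12, at chr5:33523535-33892192 on the minus strand, had 3, 4 and 4 counts in siControl and 7, 6 and 35 in siDAB2IP. The groups did not overlap, at 0.187, 0.186 and 0.235 against 0.395, 0.332 and 2.03 CPM. The count ratio was 4.49 (exact 95% interval 2.3 to 9.6), and the ratio of the ADAMTS12 means, 4.53 over all libraries, was 1.79 without siDAB2IP replicate 3. When every gene with a count was fitted, ADAMTS12 had a log2 fold change of 2.13 ± 0.62 (SE) and was past the threshold, the only one of the 9 genes that this setting added.

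ADAMTS3, the procollagen and VEGFC-activating protease, had 10, 8 and 9 counts in siControl and 6, 9 and 5 in siDAB2IP. The groups overlapped at 0.371 to 0.623 and 0.290 to 0.498 CPM, and the interval of its count ratio ran from 0.406 to 1.41. When every gene with a count was fitted, ADAMTS3 had a log2 fold change of -0.42 ± 0.64 (SE) and was not past the threshold.

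ADAMTSL4, the fibrillin-binding protein without a protease domain, was by far the most read of the 9 genes, with 774 to 1025 counts in siControl and 920 to 1230 in siDAB2IP. It held 48.2, 47.6 and 54.3 CPM in siControl and 67.0, 68.1 and 53.3 CPM in siDAB2IP. The first 2 siDAB2IP libraries were above all controls and the third was among them. The ADAMTSL4 log2 fold change was 0.33 ± 0.12 (SE), not past the threshold. It crossed the threshold in 1 of 14 other settings, without siDAB2IP replicate 3, where the log2 value was 0.43. ADAMTSL4 lies on the plus strand at chr1:150549369-150560937, and the antisense gene ADAMTSL4-AS1 covers 736 bases, or 11.4%, of its exons. ADAMTSL4-AS1 rose from 0.359 ± 0.12 to 1.68 ± 1.01 CPM (log2 fold change 2.24 ± 0.57 SE, edgeR adjusted p = 0.0291). Its groups did not overlap, where 35.9% of all genes tested had groups that did not. Its control libraries were too low for the filter on low counts, so it entered the fit only through siDAB2IP, where it is high. The counting is not stated to use strand, so reads of ADAMTSL4-AS1 and ADAMTSL4 cannot be told apart there, and the same holds for AL356356.1 (189 shared bases, adjusted p = 0.24).

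Levels between genes were compared per length, in the deposited FPKM, with no test, since the values of any 2 genes come from the same 3 libraries. In siControl, ADAMTSL4 stood first at 7.71 ± 0.562 FPKM (SD, n = 3), about 1 order of magnitude above the highest of the 8 proteases, ADAMTS15, at 0.792 ± 0.0591 FPKM. ADAMTS6 followed at 0.432 ± 0.0222 FPKM, ADAMTS9 at 0.357 ± 0.0269 and ADAMTS1 at 0.269 ± 0.114. ADAMTS3, ADAMTS4 and ADAMTS5 lay at 0.0701, 0.0695 and 0.0530 FPKM, and ADAMTS12 was last at 0.0205. The ranges of ADAMTS9 and ADAMTS1 overlapped, as did those of ADAMTS3 and ADAMTS4 and of ADAMTS4 and ADAMTS5. All other neighbours in the order had separate ranges. The order was the same in CPM per kilobase.

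**Figure D2:**
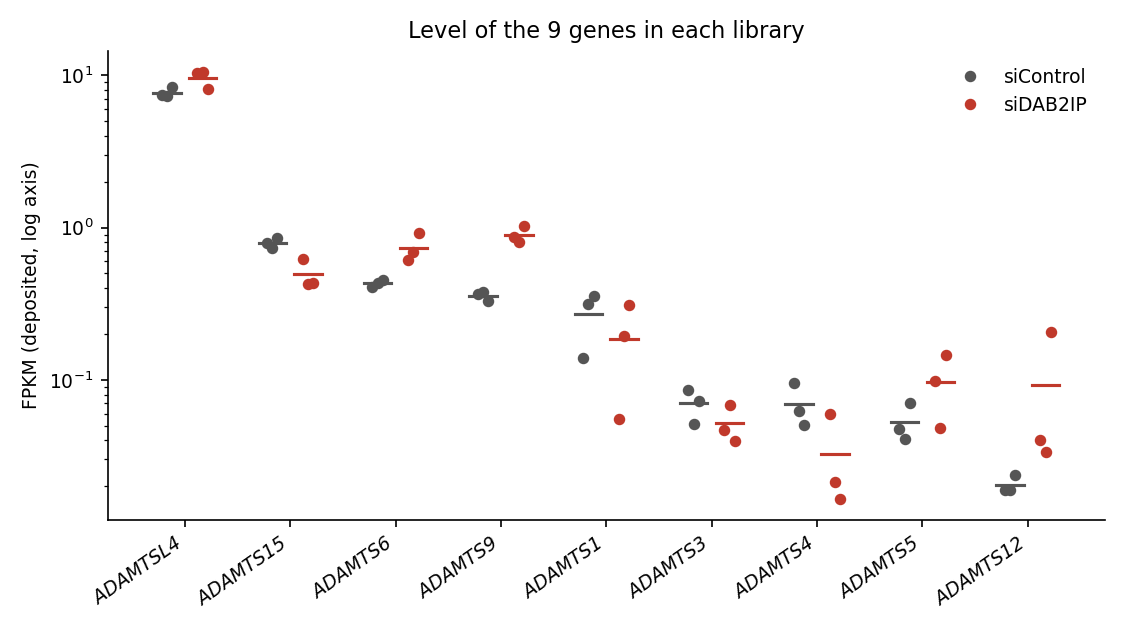
Deposited FPKM of the 9 genes in each library on a log axis, ordered by their mean in siControl. Points are libraries and short lines are group means (n = 3). ADAMTSL4 lies between 7.35 and 10.5 FPKM and no library of the 8 proteases is above 1.02 FPKM.

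In siDAB2IP the order of the proteases differed. ADAMTS9 was first at 0.901 ± 0.111 FPKM, followed by ADAMTS6 at 0.740 ± 0.157 and ADAMTS15 at 0.493 ± 0.111. The ranges of ADAMTS9 and ADAMTS6 overlapped there, and those of ADAMTS6 and ADAMTS15 also did. ADAMTS4 was last at 0.0324 FPKM.

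The make-up of the transcripts of the 8 proteases described here changed with these levels. Within the summed FPKM of the 8 proteases, ADAMTS15 made up 40.5%, 36.1% and 38.6% in siControl and 25.8%, 18.5% and 14.1% in siDAB2IP. ADAMTS9 made up 18.8%, 18.6% and 14.8% in siControl and 36.2%, 35.4% and 33.2% in siDAB2IP. Among these 8 proteases, ADAMTS15 thus had the largest share in each control library and ADAMTS9 in each siDAB2IP library. ADAMTS6 took 20.6% to 21.3% and 25.5% to 30.1%, so these 3 genes held most of the sum in every library. These shares come from the values that chose the genes and carry no test.

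**Figure D3:**
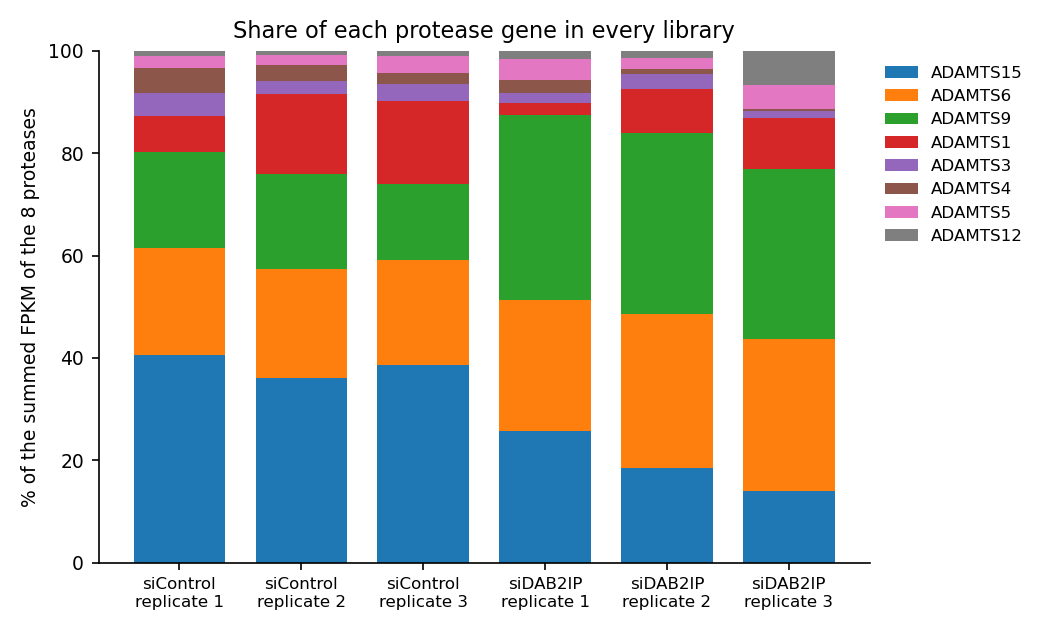
Share of each of the 8 protease genes in their summed FPKM, 1 stacked bar per library, as % of that library's sum. The ADAMTS15 segment goes from 36.1% or more in siControl to 25.8% or less in siDAB2IP, and the ADAMTS9 segment from 18.8% or less to 33.2% or more.

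The wider family set these values in context. The FPKM of all 19 ADAMTS proteases summed to 7.90, 7.72 and 7.52 in siControl and 10.7, 10.9 and 16.2 in siDAB2IP. The 8 proteases described here contributed 24.8% to 29.3% and 19.1% to 22.4% of this sum. ADAMTS7, a protease of the cartilage oligomeric matrix protein that is not one of them, gave 55.6% to 59.3% and 58.0% to 65.9%, with 4.45 ± 0.0487 FPKM in siControl.

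Of the 11 other ADAMTS protease genes, 4 passed the filter on low counts and 2 of these 4 rose, beside 6.55% of all genes tested, whereas 5 of the 11 had at most 3 counts in every library. ADAMTS7 held 34.3, 34.9 and 34.8 CPM in siControl and 48.6, 54.8 and 83.3 CPM in siDAB2IP, with a log2 fold change of 0.84 ± 0.18 (SE; edgeR, adjusted p = 0.0139). Its call was lost without any 1 siControl library (adjusted p = 0.057 to 0.0657). It overlaps MORF4L1 on the other strand, and 3 copies in the table (ADAMTS7P1, ADAMTS7P3 and ADAMTS7P4) had at most 16 counts in a library, so its reads are uncertain where these share sequence. ADAMTS14, a procollagen protease close to ADAMTS3 in function, rose from 1.14 ± 0.702 to 3.02 ± 0.564 CPM (log2 fold change 1.42 ± 0.41 SE, edgeR adjusted p = 0.045). The ADAMTS14 call was lost without siControl replicate 2 (0.155) or 3 (0.111), or without siDAB2IP replicate 1 (0.118) or 2 (0.0681). ADAMTS13 and ADAMTS17 had log2 values of 0.61 ± 0.28 and 0.84 ± 0.42 (SE) and did not pass.

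**Figure D4:**
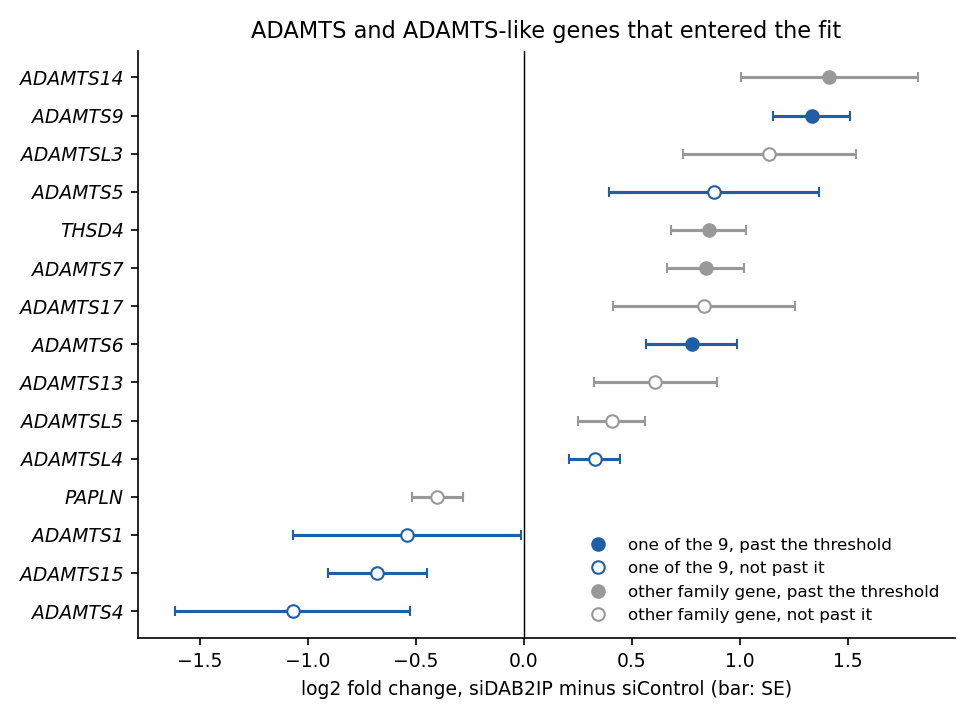
Log2 fold change (siDAB2IP minus siControl, edgeR) with its SE for the 15 ADAMTS and ADAMTS-like genes that entered the fit. Filled points are past an adjusted p of 0.05, blue points are genes of the 9 described here and grey points are other family genes. ADAMTS14 lies highest at 1.42 and ADAMTS4 lowest at -1.07.

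Over 5 lists of related genes, 7 of 41 tested genes rose and none fell in the edgeR test. Over all genes tested 6.55% rose and 7.65% fell. The lists held 63 genes, which were put together by function but with earlier results of these data known. Of the 41, 29 had a log2 value above 0, with a median of 0.28, where 7884 of all 15430 genes tested were above 0, with a median of 0.01. At an unadjusted p under 0.05, 17 were higher and 3 lower (PAPLN, ADAM12 and ADAM17), beside 14.5% and 15.5% of all genes tested. DESeq2, which tested 43 of the list genes, called 9 higher and 1 lower (PAPLN), beside 7.15% and 8.98%. With the replicate number as a block, 14 of the 41 rose and 4 fell, beside 9.59% and 11.4% of all genes in that fit. In the fit without the block, the count that rose varied with the library left out, as did the count over all genes. It was 1 of 43 without siControl replicate 1, beside 434 of all 15858 genes tested. Without siControl replicate 2 it was 0 of 44, beside 264 of 15838. Without siDAB2IP replicate 1 it was 4 of 43, beside 658 of 15841. Without siDAB2IP replicate 3, 9 of 42 rose and 2 fell, beside 1172 and 1352 of 15743.

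Among 6 other ADAMTS-like genes, 4 were tested and 1 of them, THSD4, rose, beside 6.55% of all genes tested. THSD4, also known as ADAMTSL6, promotes microfibril assembly and had the highest mean FPKM of the list over all 6 libraries, although PAPLN was higher in siControl (4.17 against 3.22 FPKM). It went from 51.4 ± 8.19 to 93.1 ± 22.1 CPM (log2 fold change 0.86 ± 0.17 SE, edgeR adjusted p = 0.0122), and missed the threshold without siControl replicate 1 (0.0532) or 2 (0.0562). PAPLN, papilin, had a log2 value of -0.40 ± 0.12 (SE), with an adjusted p of 0.0521 in edgeR and 0.036 with the replicate block. Of 7 membrane-bound ADAM proteases tested, none was called in either direction, where 6.55% of all genes tested rose and 7.65% fell. ADAM15, the most abundant, had a log2 value of 0.21 ± 0.11 (SE). With the block, 2 of these 7 proteases fell, beside 11.4% of all genes in that fit. They were ADAM12 (log2 value -1 ± 0.18 SE, adjusted p = 0.00679) and ADAM17 (-0.45 ± 0.13 SE, adjusted p = 0.0357). Without the block their log2 values were -0.90 ± 0.33 and -0.41 ± 0.18 (SE).

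Among substrates and partners, 3 of 15 tested genes rose, beside 6.55% of all genes tested. With the replicate number as a block 7 rose and 1 (VCAN) fell, beside 9.59% and 11.4% of all genes in that fit. The block added VEGFC, FBN1 (fibrillin 1, which ADAMTSL4 binds; log2 fold change 0.87 ± 0.13 SE, adjusted p = 0.00289 with the block), FN1 (fibronectin, 0.47 ± 0.10 SE, 0.0146) and THBS1 (thrombospondin 1, 0.58 ± 0.14 SE, 0.0193). CCBE1, the protein that presents VEGFC to ADAMTS3, went from 6.36, 11.7 and 15.8 CPM to 20.1, 27.3 and 42.7 CPM, a log2 fold change of 1.41 ± 0.33 (SE; edgeR, adjusted p = 0.0207). Replicate 1 was lowest and replicate 3 highest in both groups. VEGFC itself had a log2 value of 0.47 ± 0.16 (SE), not past the threshold (adjusted p = 0.0724, and 0.0194 with the block). COL1A1, a fibrillar collagen chain that is also on the fibroblast marker list, rose from 15.3 ± 1.24 to 26.3 ± 5.44 CPM (log2 fold change 0.78 ± 0.16 SE, edgeR adjusted p = 0.0129). CCBE1 and COL1A1 both missed the threshold without siControl replicate 1 (0.0653 and 0.0621) or 2 (0.0801 and 0.067). BCAN, the proteoglycan brevican, had a log2 fold change of 0.72 ± 0.21 (SE, edgeR adjusted p = 0.0488). Its call was lost without any 1 of the 6 libraries (0.0629 to 0.167). It was also lost in DESeq2 (0.0505) and with at least 10 counts required in every library (0.0505). On the other strand, 2 tested genes overlap BCAN. SDC4, syndecan 4, the most abundant of the list, had a log2 value of 0.27 ± 0.12 (SE) and did not pass. The aggrecan gene ACAN had at most 2 counts in a library, and VCAN, versican, had a log2 value of -0.28 ± 0.35 (SE; adjusted p = 0.648) that fell with the block (adjusted p = 0.0402).

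Among inhibitors, processing enzymes and clearance receptors, 1 of 11 tested genes rose, beside 6.55% of all genes tested. With the replicate number as a block 4 rose, beside 9.59% of all genes in that fit. The block added TIMP3, FURIN and the convertase PCSK7 (0.29 ± 0.08 SE, adjusted p = 0.0369 with the block). PCSK6, a furin-like convertase, went from 46.0 to 58.9 CPM on average, with a log2 fold change of 0.36 ± 0.10 (SE; edgeR, adjusted p = 0.045). The PCSK6 call was lost without any 1 siControl library or without siDAB2IP replicate 1 or 2 (0.11 to 0.143). TIMP3, the tissue inhibitor that blocks ADAMTS4 and ADAMTS5, had a log2 value of 0.43 ± 0.13 (SE; adjusted p = 0.0542, and 0.0212 with the block). FURIN had 0.28 ± 0.10 (SE; adjusted p = 0.083, and 0.0497 with the block). TIMP1, the most abundant of the list at 501 FPKM in siControl, had a log2 value of -0.30 ± 0.19 (SE; adjusted p = 0.322).

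**Figure D5:**
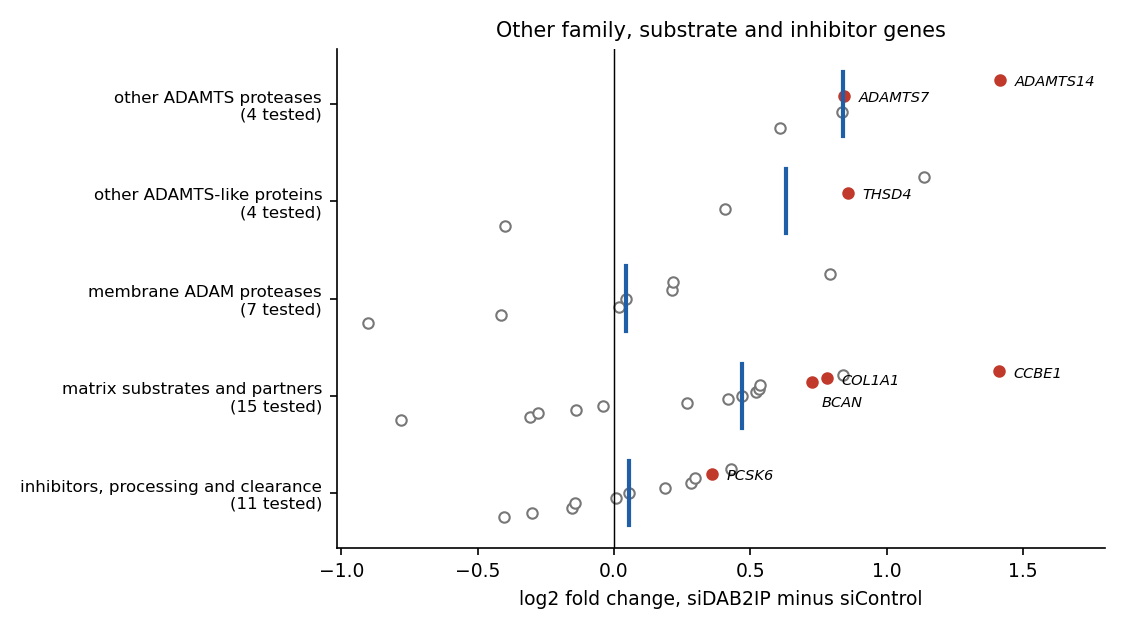
Log2 fold change (siDAB2IP minus siControl, edgeR) of the 41 tested genes of the 5 lists. Each point is a gene, red filled points are past an adjusted p of 0.05 and carry their names, and blue lines are list medians. All 7 red points lie above 0, and the list medians run from 0.04 to 0.84.

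The genomic surroundings of the 9 genes were also read. Within 500 kb of ADAMTS9, 2 genes were tested and PSMD6 fell (log2 fold change -0.47 ± 0.10 SE, edgeR adjusted p = 0.0156). Near ADAMTS6, CENPK fell (-1.06 ± 0.19 SE) among 10 tested, and near ADAMTS15, ZBTB44 fell (-0.36 ± 0.09 SE) among 6 tested. In each of these 3 windows no tested neighbour rose, and over all genes tested 7.65% fell. Near ADAMTSL4, 7 of 31 tested genes rose (ADAMTSL4-AS1, CDC42SE1, TARS2, GOLPH3L, MLLT11, CTSK and ECM1), and near ADAMTS4, 4 of 20 rose (F11R, USP21, NECTIN4 and SLAMF7), beside 6.55% of all genes tested. These windows were not tested against other windows. The tested neighbours of ADAMTS1, ADAMTS3, ADAMTS5 and ADAMTS12 numbered 1 to 3 each and none was called.

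RefSeq promoters on GRCh38.p14, which run from 250 bases before to 50 after the start site, were matched for 4 of the 9 genes (ADAMTS3, ADAMTS6, ADAMTS12 and ADAMTSL4). The others are ADAMTS1, ADAMTS4, ADAMTS5, ADAMTS9 and ADAMTS15. Both strands were searched for 4 motifs. The AP-1 motif TGANTCA was present in 7.71% of all 35116 promoters of 300 bases. The TEAD motif searched was GGAATG, held by 14.0% of them, the TATA box motif was TATAAA, held by 11.5%, and the kappa B motif was held by 7.73%. The matches are shown with flanking bases on the gene's strand, the motif in capitals, to show where the letters lie. They were found in ADAMTS6 and ADAMTS12 only, of the 4 windows searched.

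ADAMTS6, TEAD, chr5:65482105-65482130, minus strand: gaaaagaggcGGAATGagataggaca

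ADAMTS12, AP-1, chr5:33892058-33892084, minus strand: cactgtcagcTGAATCActcccctttt

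ADAMTS12, TEAD, chr5:33892094-33892119, minus strand: cgctctggccCATTCCacaccccgcc

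The last match lies on the opposite strand to the gene and so appears as its reverse complement. The windows of ADAMTS3 and ADAMTSL4 held none of the 4 motifs, and their GC content was 72.7% and 82.3%, against 52.0% for ADAMTS6 and 67.0% for ADAMTS12. These are letter matches, and nothing here measured binding.

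By Pearson's r of log2 CPM over the 6 libraries, the tested genes most like ADAMTS9 were GDF15 (r = 0.9985), FUK (r = 0.9981) and QSOX1 (r = 0.9968), out of 15429 ranked. The points share libraries and the group difference, so these values are a description. GDF15, a secreted stress-responsive growth factor, rose from 61.5 ± 9.31 to 245 ± 45.9 CPM (log2 fold change 1.99 ± 0.16 SE, edgeR adjusted p = 0.000164). QSOX1, a secreted disulfide-forming oxidase, rose by 0.83 ± 0.10 (SE) and FUK, fucose kinase, by 0.51 ± 0.09 (SE) on the log2 scale. Among the 9 genes themselves, over the same 6 libraries, ADAMTS6 and ADAMTS9 had r = 0.93, and ADAMTS6 and ADAMTS15 had r = -0.92. ADAMTS1 was close to 0 with ADAMTS6 (-0.03) and with ADAMTS15 (0.03).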

How the data were processed

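RNA-Seq of 6 MCF10A libraries was used. The authors deposited a table of whole-number counts per gene and a table of FPKM values, which divide each count by gene length and a scaled library total. The submitters' processing notes name STAR 2.6.1d, featureCounts 1.5.0-p3, DESeq2 1.20.0, edgeR 3.24.3 and hg38, without roles. The positions of the 9 genes equal those of GENCODE 29. Counts were filtered by edgeR 4.0.16 in R 4.3.3 (default filterByExpr), TMM-scaled and tested with its quasi-likelihood F test, with Benjamini-Hochberg adjustment over every gene tested, and SEs come from the F statistic. The code was tested on simulated counts. A planned permutation test of neighbours in the order of levels is not reported, because it takes values of the same libraries as independent. Libraries of the same replicate number correlated across genes in their deviations from group means at r = 0.26, 0.15 and 0.25 (different numbers, -0.28 to 0.02), and were taken as pairs in an alternative fit with the number as a block, although the labels do not say what the number stands for. Values are from the fit without it. The 9 genes and all lists were chosen with earlier results of these data known. Named were the 9 genes, DAB2IP, called genes and the most abundant gene of each list (mean FPKM), tested genes that overlap one of the 9, called genes within 500 kb, and the 3 genes most like ADAMTS9. Some items that this rule names are not reported here. PAPLN, ADAM12, ADAM17, ADAMTS13, ADAMTS17, VEGFC, VCAN, ACAN, FBN1, FN1, THBS1, TIMP3, PCSK7 and FURIN were named after their values were seen. Alternatives were DESeq2 1.42.0, its size factors (RLE), library size scaling, other filters on low counts, a replicate block, limma 3.58.1 on log2(FPKM + 1) and log2(FPKM + 0.1) for genes of at least 0.1 mean FPKM, a fold threshold and leaving out each library. Each library held 16353783 to 21916062 counts, and counting intervals cover counting error only.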

Additional observations from a re-analysis of the deposited data

How the results depend on the processing

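DAB2IP kept its direction and call in every setting tried, with log2 fold changes from -1.99 to -1.55. The number of the 9 genes past the threshold upward was 2 of 7 tested, beside 1011 of 15430 over all genes. It was 3 of 9 without a filter on low counts (1245 of 29567). In limma it was 1 of 5 on log2(FPKM + 1) (452 of 20096) and on log2(FPKM + 0.1) (449 of 20096). It was 1 when a log2 value of at least 1 in size was also required, for which no count over all genes is given. When each library was left out it was 1 to 2 of 7 tested, and the count over all genes moved widely. For example, it was 1 without siControl replicate 2 (264 of 15838) and 2 without siDAB2IP replicate 3 (1172 of 15743). The number downward was 0 in all settings, beside 459 to 1754 over all genes in the fits. The number of list genes that rose was 7 of 41 tested, beside 1011 of 15430 over all genes. It was 12 of 61 without a filter on low counts (1245 of 29567) and 14 of 41 with the replicate block (1479 of 15430). In limma it was 0 of 39 on log2(FPKM + 1) (452 of 20096) and on log2(FPKM + 0.1) (449 of 20096). It was 2 with the fold threshold, again with no count over all genes given. When each library was left out it was 0 to 9, and 264 to 1172 over all genes. The number that fell was 0 (1181 over all genes), against 1 in DESeq2 (1368), 3 without a filter (1692) and 4 with the replicate block (1754). When each library was left out, 0 to 2 list genes fell, and 459 to 1352 over all genes. The causes were not tested. The paired fit with the replicate block changed no call among the 7 tested genes of the 9, and over all genes it called 1479 higher and 1754 lower, against 1011 and 1181. Without siControl replicate 2, 264 and 459 genes were called. Scaling by library size alone moved the median log2 fold change of all genes to 0.05. No value changed sign among the 7 tested genes of the 9, DAB2IP and the 7 list genes that rose. Of the 9 genes, ADAMTS3, ADAMTS4, ADAMTS5 and ADAMTS12 had at most 35 counts in a library, which limits the precision of their values.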
